A study of Arabidopsis thaliana with 19 samples.

Results

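The 10 genes described here work in the last steps of plant cell division, namely the mitotic spindle, the phragmoplast, the division plane and the cell plate. They were KNOLLE, HINKEL, TETRASPORE, MAP65-3, EDE1, TPX2, AUR1, AUR2, POK1 and POK2, chosen by their locus identifiers for these known roles from the 33201 loci of the expression table, by a rule that uses no measured value. The unit is FPKM, a fragment count divided by transcript length and by the sequencing depth of each library. Averaged over the 19 libraries, all 10 reached the minimum of 1 FPKM and so were among the 18087 loci tested. Because FPKM is scaled to transcript length, levels of different genes can be set side by side.

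In plant cells the spindle is built without centrosomes, by proteins that nucleate, bundle and move microtubules. After the chromosomes have separated, a second microtubule array, the phragmoplast, carries vesicles to the middle of the cell, where they fuse into the cell plate that becomes the new wall. The position of that wall is marked in advance at the cell cortex. Transcripts for these steps are known to accumulate in G2 and mitosis, and many of their promoters carry the mitosis-specific activator element, with the core AACGG, which MYB3R transcription factors bind.

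RNA was measured in cells of Arabidopsis thaliana root tips from PET111:GFP seedlings, in which GFP labels the differentiated columella only. The cut root tip was digested to protoplasts, of which the sorter kept those without GFP, mostly stem cells by the study's account. All groups shared this genotype, the growth conditions and, by the study's account, the time of day of collection. Ages 8 h apart then imply starts at different times of day, which cannot be told apart from age in the 8 h steps. The groups are labelled by seedling age: from 4 days (4D) to 6 days (6D) at intervals of 8 h. The points between are written 4D 8H and 4D 16H on day 4, and 5D with its own 5D 8H and 5D 16H on day 5. There were 3 libraries at each time point except 4D 8H and 5D 16H, which had 2, and each library is called a biological replicate.

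The gate excludes 1 reporter only, so other root cells remained in the samples. None of the 25 marker genes for meristem, root cap, endodermal barrier, root hair, xylem vessel or phloem was at 0 in every library, and the 3 endodermal barrier genes summed to 489 to 1603 FPKM. Depth, estimated from the steps between low values, was 10.1 to 38.1 M reads (megareads) in 18 libraries and 1.17 M reads in 5D 16H replicate 2. The shallow library stood apart too in its ribosomal RNA locus AT2G01020, at 72842 FPKM against 2441 to 10711 FPKM elsewhere, and in its mean Spearman correlation with the other libraries, 0.931 against 0.959 to 0.973. Tests resting on 5D 16H are therefore also described without it, which leaves 1 library there, in places by the size of change only. In bulk RNA of this kind, fewer dividing cells and less RNA per dividing cell cannot be told apart.

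The stretches of DNA around the gene starts are shown because the 10 genes varied together over the libraries, as described further on. In RefSeq assembly TAIR10.1, the window from 250 bases before to 50 bases after the annotated start held the core AACGG, on either strand, in 8 of the 9 genes searched, against 24.7% of 27443 such windows in the genome. POK1 had no match. There were 2 or more matches in 3 genes (KNOLLE, TETRASPORE and MAP65-3), against 4.89% of all windows. The longer form CNAACGG, which contains the core, was found in 4 genes (KNOLLE, HINKEL, AUR2 and POK2), against 5.52% of all windows. The windows of KNOLLE and MAP65-3, with 3 matches each, are printed 5′ to 3′ on the strand of the gene, with the core in capitals (AACGG on the strand of the gene, CCGTT where it lies on the other strand). The KNOLLE window lies at chr1:2710951-2711250 and the MAP65-3 window at chr5:20964488-20964787, both on the minus strand.
KNOLLE: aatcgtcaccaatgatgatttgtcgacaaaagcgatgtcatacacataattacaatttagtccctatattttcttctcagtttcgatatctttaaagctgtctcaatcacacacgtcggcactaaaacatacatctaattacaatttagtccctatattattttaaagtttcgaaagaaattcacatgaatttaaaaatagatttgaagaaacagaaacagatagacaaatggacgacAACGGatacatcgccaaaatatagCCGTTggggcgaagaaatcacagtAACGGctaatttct
MAP65-3: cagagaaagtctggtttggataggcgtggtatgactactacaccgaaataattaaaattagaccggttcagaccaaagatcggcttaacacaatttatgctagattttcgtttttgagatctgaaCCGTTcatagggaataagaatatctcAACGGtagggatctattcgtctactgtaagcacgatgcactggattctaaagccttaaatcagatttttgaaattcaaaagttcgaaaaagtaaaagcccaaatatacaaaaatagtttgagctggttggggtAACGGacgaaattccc

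In KNOLLE the 3 matches lay close to the start, with first bases at -12, 13 and 37, and the match at 13 had the longer form. In MAP65-3 they were at -125, -99 and 35, and none had the longer form. These are matches of letters only, and binding was not measured.

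**Figure D1:**
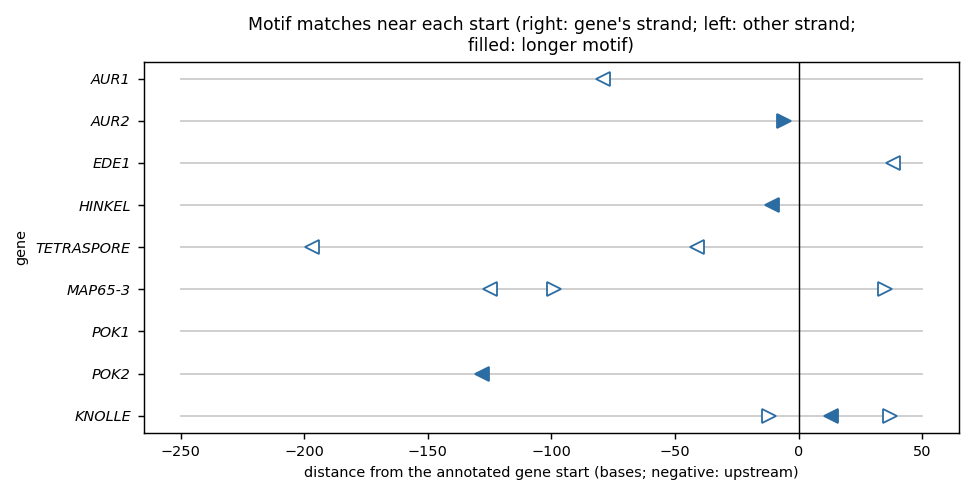
Position of each match of the core motif in the window around the start of 9 of the genes, in bases from the annotated start (0, vertical line). Triangles pointing right are on the strand of the gene and those pointing left on the other strand, filled triangles also match the longer form, 8 of 9 genes have at least 1 match and POK1 has none.

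The 10 genes covered a wide span of levels. AUR1, AUR2 and KNOLLE were the most abundant, with means over all 19 libraries of 10.3, 12.1 and 14.1 FPKM. TPX2, TETRASPORE, HINKEL and MAP65-3 had means of 3.64, 3.64, 3.66 and 2.52 FPKM. POK1, POK2 and EDE1 were lowest, at 1.66, 1.46 and 1.18 FPKM. The pooled SD within time points was 2.22 FPKM for KNOLLE, 2.04 FPKM for AUR2 and 1.64 FPKM for AUR1, so these neighbours were set apart by about their spread, and HINKEL, TETRASPORE and TPX2 by far less than theirs. The 3 most abundant genes did not overlap the others, since the lowest value of AUR1 was 6.11 FPKM and the highest of TPX2 5.61 FPKM, whereas POK1, POK2 and EDE1 overlapped MAP65-3.

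TPX2 (AT1G03780), which binds spindle microtubules and activates Aurora kinase, had its highest time-point mean at 6D. The 6D libraries held 5.51, 4.51 and 3.86 FPKM and the 4D 16H libraries 4.74, 3.20 and 5.61 FPKM. At 4D it was at 3.14, 2.46 and 3.24 FPKM, so every 6D library lay above every 4D library, with a log2 fold change of 0.51 (SE 0.17) that did not pass the test (limma, adjusted p = 0.0894).

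AUR1 (AT4G32830, chr4:15842443-15844865, plus strand, 9 exons in its longest transcript) and AUR2 (AT2G25880, chr2:11034652-11038191, minus strand, 10 exons) encode Aurora kinases of the spindle and the forming cell plate. AUR1 was at 9.21, 7.10 and 8.24 FPKM at 4D, at 10.5 and 9.74 FPKM at 4D 8H, and at 11.1, 14.1 and 13.6 FPKM at 4D 16H. It was at 6.11, 9.90 and 8.22 FPKM at 5D, below every 4D 16H library. Later libraries, which overlap, gave 10.4, 10.1 and 13.4 FPKM (5D 8H), 10.6 and 9.28 FPKM (5D 16H), then 13.8, 11.3 and 9.37 FPKM (6D). AUR2 did not follow this course between 4D 16H and 5D, where its means were 12.4 and 12.6 FPKM, and its lowest mean was at 4D (9.89 FPKM) and its highest at 6D (14.4 FPKM). The reference sequences of AUR1 and AUR2 shared no stretch of 100 bases, the length of the reads.

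EDE1 (AT2G44190, chr2:18272119-18274679, plus strand, 6 exons), a microtubule-associated protein first known from endosperm, was the lowest of the 10. It was at 1.25, 1.45 and 1.83 FPKM at 4D 16H and at 1.43, 1.51 and 1.53 FPKM at 6D. At 5D 16H it was at 0.933 FPKM in replicate 1 and listed at 0 in replicate 2. At the depth of that library, 3 reads would be 1.43 FPKM, a level that most libraries did not reach, so the 0 says little about EDE1.

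HINKEL (AT1G18370, chr1:6319450-6324378, minus strand, 15 exons) and TETRASPORE (AT3G43210, chr3:15190786-15196215, plus strand, 14 exons) are related kinesins that switch on the MAP kinase cascade by which the phragmoplast expands. TETRASPORE is best known for the cytokinesis that follows male meiosis. TETRASPORE stood at 3.37, 3.07 and 4.27 FPKM at 4D, at 3.23 and 3.38 FPKM at 4D 8H, and at 3.37, 3.32 and 4.71 FPKM at 4D 16H. It then ran at 3.11, 3.09 and 3.22 FPKM at 5D, at 3.50, 3.72 and 3.52 FPKM at 5D 8H, and at 2.96 and 2.46 FPKM at 5D 16H. With 5.44, 4.51 and 4.85 FPKM at 6D, its 6D libraries lay above every other library except 4D 16H replicate 3. HINKEL was highest at 4D 16H, with 3.69, 4.58 and 4.78 FPKM, but its 6D libraries spread from 2.70 to 4.88 FPKM, a span that held every other library except 5D 16H replicate 2 (1.96 FPKM).

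MAP65-3 (AT5G51600, chr5:20960779-20964537, minus strand, 12 exons), which holds antiparallel microtubules together at the middle of the phragmoplast, was at 2.93, 2.59 and 3.35 FPKM at 4D 16H. At 5D 16H both libraries, at 1.71 and 1.74 FPKM, lay below every other library. At 6D it was at 3.70, 2.63 and 2.26 FPKM.

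POK1 (AT3G17360, chr3:5935880-5946540, plus strand, 34 exons) and POK2 (AT3G19050, chr3:6577724-6590253, plus strand, 37 exons) are kinesins that keep the cortical mark of the division plane until the cell plate arrives. POK2 was at 1.59, 1.45 and 2.40 FPKM at 4D 16H, at 0.911 and 0.583 FPKM at 5D 16H, and at 1.95, 1.82 and 1.47 FPKM at 6D, and its 5D 16H libraries were its lowest of all 19. POK1 was at 1.17 and 1.30 FPKM at 5D 16H, its lowest values, against 1.35 to 2.15 FPKM elsewhere.

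KNOLLE (AT1G08560, chr1:2709525-2711000, minus strand, 2 exons), the syntaxin through which vesicles fuse at the cell plate, was at 12.4, 11.6 and 10.6 FPKM at 4D and at 12.6 and 13.3 FPKM at 4D 8H. It reached 16.8, 16.1 and 18.6 FPKM at 4D 16H and was back at 11.2, 12.5 and 12.4 FPKM at 5D, with no overlap between these groups. The 6D libraries were far apart, at 20.9, 16.6 and 12.2 FPKM.

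**Figure D2:**
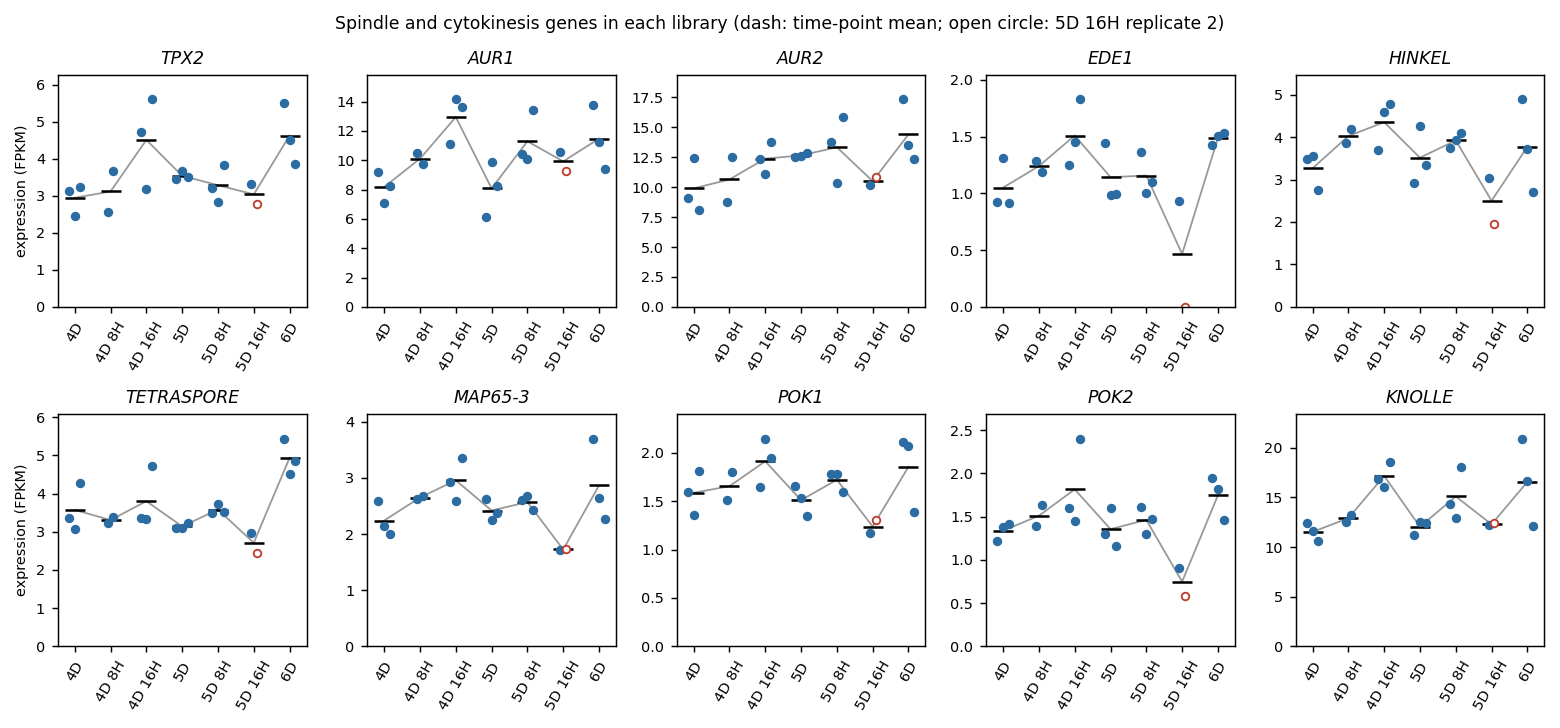
Expression (FPKM) of each of the 10 genes in every library at the 7 time points. Circles are libraries, dashes joined by a grey line are time-point means, and the open circle is 5D 16H replicate 2. The highest mean is at 4D 16H in 7 genes and at 6D in 3, and 6 genes have their lowest mean at 5D 16H.

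The genes shared the times of their highs and lows. The highest time-point mean was at 4D 16H for 7 genes, against 21.5% of all tested loci. It was at 6D for the other 3 (TETRASPORE, TPX2 and AUR2), against 16.3%. Either of these times, a pair taken from the 10 genes themselves, held the highest mean of 37.9% of loci. The lowest mean was at 5D 16H for 6 genes, against 26.1% of loci, at 4D for 3 and at 5D for AUR1. With 5D 16H left aside, the lowest mean was at 4D for 7 genes, against 19.1% of loci, and at 5D for 3, against 21.9%. Either of these times, again taken from the 10 genes, held the lowest mean of 41% of loci. The ratio of the highest to the lowest mean was 1.45 for AUR2 to 3.24 for EDE1 over all time points, and 1.27 for POK1 to 1.60 for AUR1 without 5D 16H.

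The 10 genes also varied together. Their 45 pairs had a Pearson r above 0 in every case over the 19 libraries, with a median of 0.60 and a span from 0.23 (EDE1 and AUR1) to 0.85 (KNOLLE and AUR1). Without 5D 16H replicate 2 the median was 0.54. These correlations describe libraries that share time points and depth, and they carry no test. After each gene was standardised over the libraries, the mean of the 10 was highest in 6D replicate 1 (1.66) and 4D 16H replicate 3 (1.45) and lowest in 5D 16H replicate 2 (-1.62) and 5D 16H replicate 1 (-0.89). The 3 libraries at 6D lay far apart, at 1.66, 0.79 and -0.08, while those at 4D lay between -0.62 and -0.44. Single libraries thus carried much of the pattern, since 4D 16H replicate 3 and 6D replicate 1 were each among the 3 highest libraries for 9 of the 10 genes.

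**Figure D3:**
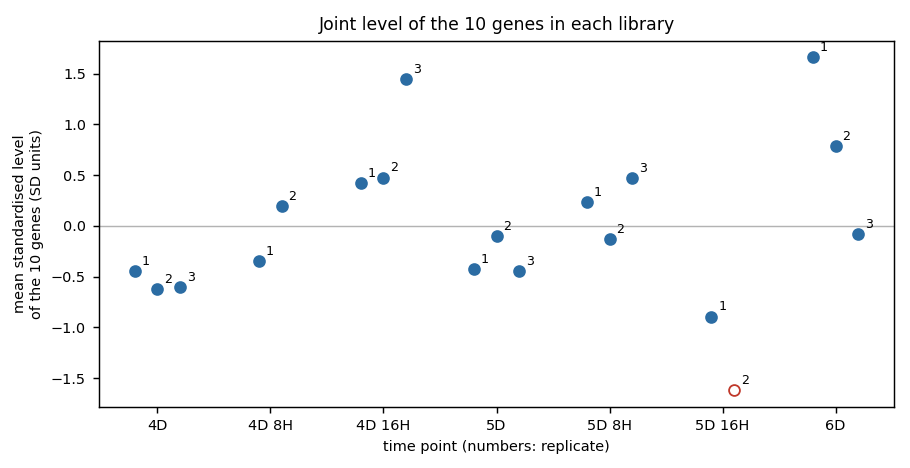
Mean of the 10 genes in each library after each gene was standardised over the 19 libraries, in SD units. Each circle is a library with its replicate number, and the open circle is 5D 16H replicate 2. The libraries at 4D and 5D lie below 0, those at 4D 16H above 0, those at 5D 16H lowest, and those at 6D are spread from -0.08 to 1.66.

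A moderated F test over the 7 time points (limma on log2(FPKM + 1), Benjamini-Hochberg adjustment over all 18087 loci) was passed by 2 of the 10 genes, TETRASPORE (adjusted p = 0.0354) and AUR1 (adjusted p = 0.0478), against 29.7% of all loci. KNOLLE was just outside (adjusted p = 0.0509), and the other 7 genes had adjusted p-values of 0.0828 (POK2) to 0.425 (POK1). A share of 2 in 10 is no higher than the background. Neither gene passed without 5D 16H replicate 2, where the adjusted p was 0.0559 for TETRASPORE and 0.0534 for AUR1.

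Steps of 8 h address when in the day-long intervals the genes changed. From 4D to 4D 8H none of the 10 genes passed the test, against 0.133% of loci, and 0 had an unadjusted p under 0.05, which 14.4% of loci had. The log2 fold change was above 0 for 9 genes, against 64.4% of loci, but for 7 after upper quartile scaling and 5 after quantile normalization. From 4D 8H to 4D 16H all 10 were above 0, against 52.3% of loci and also after both scalings, with a median of 0.15. No gene passed, nor did any of the 18087 loci (0%), and 1 of the 10 genes had an unadjusted p under 0.05, against 4.31% of loci.

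From 4D 16H to 5D the level fell in AUR1, from a mean of 12.9 to 8.08 FPKM, with a log2 fold change of -0.63 (SE 0.17, limma adjusted p = 0.0248). It was the only one of the 10 genes to pass, against 10.7% of all loci and 7.14% with lower levels. KNOLLE had a log2 fold change of -0.48 (SE 0.15, adjusted p = 0.0538), and AUR2 of 0.03 (SE 0.17). Values were below 0 for 9 genes, against 59.5% of loci, and this count was the same after both scalings. In 3 genes (KNOLLE, TETRASPORE and AUR1) every 5D library lay below every 4D 16H library, against 24% of loci. The AUR1 call was lost without 4D 16H replicate 2 or 3 and without 5D replicate 1 or 3, with fold changes of -0.66 to -0.47 on the log2 scale. It was also lost with upper quartile scaling (adjusted p = 0.0614) and in a fit of those time points alone (adjusted p = 0.0632), where KNOLLE passed (adjusted p = 0.0247).

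From 5D to 5D 8H no gene passed, against 0.0498% of loci, and 1 had an unadjusted p under 0.05, against 10.9% of loci. The fold change was above 0 for 9 genes, against 62% of loci. It was above 0 for 8 after upper quartile scaling and for 6 after quantile normalization, where the share of loci is not given here. From 5D 8H to 5D 16H all 10 fold changes were below 0, against 59.1% of loci, with a median of -0.30 beside -0.07 over all loci. Without 5D 16H replicate 2 the count was 9 genes, against 55.3% of loci, with a median of -0.28, and TPX2 was at 0.01. It was 9 after quantile normalization too, with TPX2 at 0.04, and 10 after upper quartile scaling. None passed the adjusted threshold, which 6.96% of loci did, and 4 genes had an unadjusted p under 0.05, against 25.8% of loci. Calls among the 10 genes appeared without 5D 16H replicate 1, which leaves the shallow library alone, and not without replicate 2. Each of these fits leaves 1 library at 5D 16H, so the calls are not set against the share of all loci. In the deeper 5D 16H replicate 1, 8 of the 10 genes were below every 5D 8H library, against 38.8% of loci, and 6 were below every 5D 8H and every 6D library, against 16.8% of loci.

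From 5D 16H to 6D 3 genes rose, against 12.3% of loci that passed and 5.72% that passed with higher levels. TETRASPORE went from a mean of 2.71 to 4.94 FPKM, with a log2 fold change of 0.68 (SE 0.15, limma adjusted p = 0.0109). POK2 went from 0.747 to 1.75 FPKM (0.65, SE 0.18, adjusted p = 0.0262). EDE1, with its uninformative 0, went from 0.467 to 1.49 FPKM (0.84, SE 0.23, adjusted p = 0.0278). All 10 fold changes were above 0, against 52.9% of loci, with a median of 0.45, and 7 genes had groups that did not overlap, against 15.8% of loci. With 5D 16H replicate 2 left out, which leaves 1 library at 5D 16H, the 10 values were still above 0, with a median of 0.38. TETRASPORE was then at 0.58, POK2 at 0.52 and EDE1 at 0.36. These 3 genes lost their calls, but fewer of all loci passed too. Upper quartile scaling raised the count to 5 genes and moved the median of all loci from 0.02 to 0.19, and the share of higher values among the calls from 46.5% to 76.5%.

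**Figure D4:**
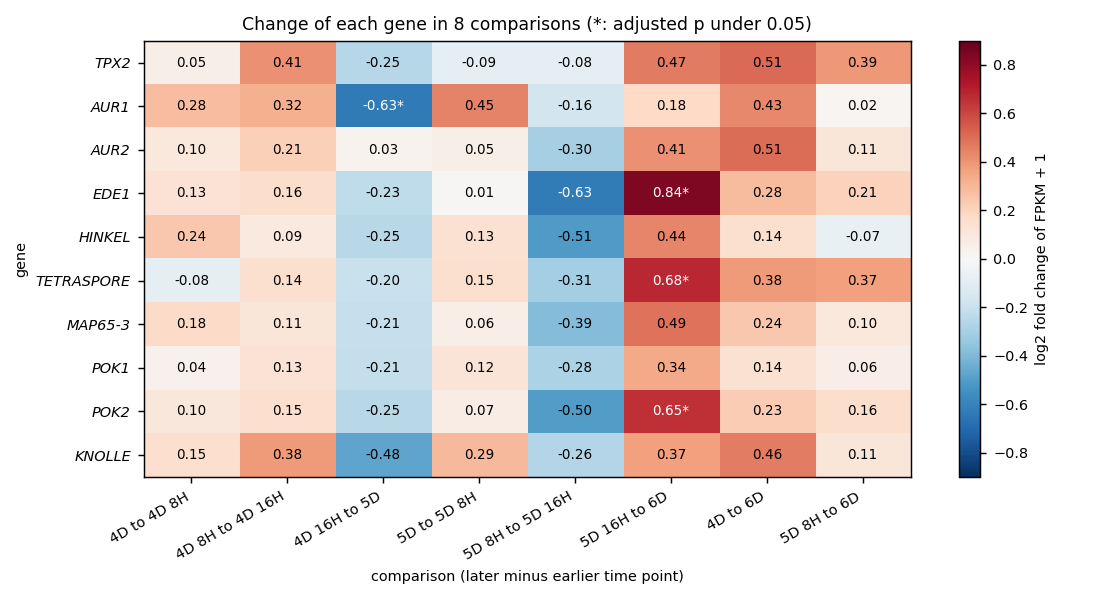
Log2 fold change of FPKM + 1, later minus earlier time point, of the 10 genes in 8 comparisons. Red is higher and blue lower at the later time point, and an asterisk marks an adjusted p under 0.05. Values are above 0 in all 10 genes from 4D 8H to 4D 16H, from 5D 16H to 6D and from 4D to 6D, and below 0 in all 10 from 5D 8H to 5D 16H (in 9 without 5D 16H replicate 2).

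Over the whole course, from 4D to 6D, all 10 genes had values above 0, against 53.5% of loci and under both scalings, with a median of 0.33 beside 0.02 over all loci. None passed the adjusted threshold, against 7.59% of loci, and 5 had an unadjusted p under 0.05, against 21.1% of loci. The lowest adjusted p belonged to KNOLLE (0.46, SE 0.15, adjusted p = 0.0772), followed by TPX2 and AUR2. In 5 genes every 6D library lay above every 4D library, against 11.2% of loci. Between 5D 8H and 6D, which leaves out 5D 16H, 0 genes passed, against 13.7% of loci, 2 had an unadjusted p under 0.05 against 26.6%, and values were above 0 for 9 genes against 44.2% of loci. TETRASPORE had the lowest adjusted p there, 0.0774.

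The 2 days differed in the last 8 h before the next full day. From 4D 16H to 5D 9 of the 10 genes had values below 0, and from 5D 16H to 6D all 10 were above 0. The test of the difference itself, the second step minus the first, was passed by 6 genes, all with higher values on day 5, against 16.2% of all loci and 9.38% in that direction. Values were above 0 for all 10 genes, against 57.9% of loci. The difference on the log2 scale was 0.88 (SE 0.20) for TETRASPORE, 0.90 (SE 0.24) for POK2, 0.85 (SE 0.23) for KNOLLE, 1.07 (SE 0.31) for EDE1, 0.70 (SE 0.21) for MAP65-3 and 0.81 (SE 0.25) for AUR1, with limma adjusted p-values of 0.0107 to 0.0376. These 6 were a cell plate syntaxin, 2 phragmoplast proteins, a division plane kinesin, a spindle kinase and a spindle-associated protein. Among the other 4 genes the difference was 0.38 (AUR2) to 0.73 (TPX2) and did not pass. Over all 3 steps of each day together, only TETRASPORE passed (adjusted p = 0.0428), against 11.6% of loci.

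This difference depended on single libraries, and most on the one that stands apart. Without 5D 16H replicate 2 the 10 values were still above 0, with a median of 0.67 beside 0.77 with all libraries, and TETRASPORE was at 0.78. Most of the 6 calls were lost in that fit, but fewer of all loci passed too. EDE1 moved from 1.07 to 0.59 and lost its call. Without 4D 16H replicate 3, 5D replicate 3, 6D replicate 1 or 6D replicate 2, 3 genes passed, in each case KNOLLE, TETRASPORE and POK2. Without 6D replicate 3, the lowest of the 6D libraries for 8 of the 10 genes, 9 passed. Quantile normalization left 3 (KNOLLE, TETRASPORE and AUR1), and sample weights left EDE1 only. The shares of all loci that passed in these alternative fits are not given here, so the counts show only how far the calls moved. Replicate 1 at 5D 16H alone stands for that time point in the fit without replicate 2, on the assumption that it varies like the other groups.

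**Figure D5:**
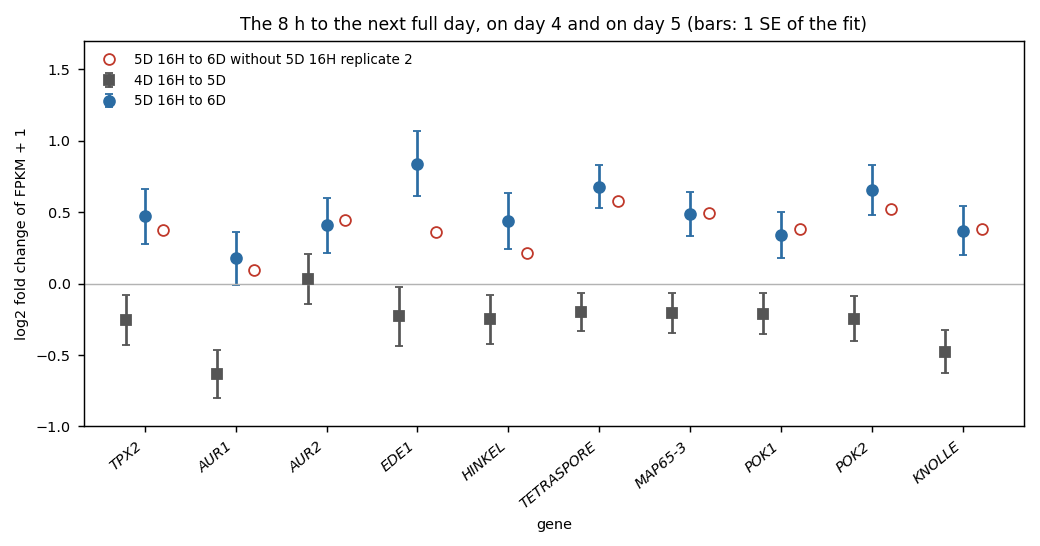
Log2 fold change of FPKM + 1 of each gene from 4D 16H to 5D (squares) and from 5D 16H to 6D (filled circles), with bars of 1 SE of the fit, and from 5D 16H to 6D without 5D 16H replicate 2 (open circles). The squares lie below 0 for 9 of 10 genes, and both kinds of circle lie above 0 for all 10.

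Other genes of cell division were followed as lists. Of 12 genes of S phase, the time of DNA replication, 9 fell from 4D 16H to 5D, against 7.14% of loci, with a list median of -0.60 beside -0.24 for the 10 genes described here and -0.07 over all loci. MCM2, a subunit of the replicative helicase, had a mean of 6.71 FPKM at 4D 16H, which fell to 3.87 FPKM at 5D. The summed level of the S phase genes was 115 to 129 FPKM at 4D 16H, 71.7 to 73.7 FPKM at 5D, 74.4 and 80.5 FPKM at 5D 16H and 66.0 to 117 FPKM at 6D. In the difference between the days, 7 of the 12 S phase genes passed with higher values, against 9.38% of loci, and the median was 0.82. The count was 6 without 5D 16H replicate 2, against 3.56% of loci. By the F test over time points 5 passed (6 without that library), against 29.7% of loci, and the smallest p-values were those of MCM2, CDC45, CDC6 and CDT1A, which work in or load that helicase.

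Of 23 further spindle genes tested, 5 passed the F test with or without 5D 16H replicate 2, a share below the 29.7% of all loci, with the smallest p-values for GCP3, TUBG1, TUBG2 and AT4G22860. GCP3 and the γ-tubulins TUBG1 and TUBG2, which nucleate microtubules, had their highest means at 4D 8H or 4D 16H and lower means at 6D than at 4D 16H, at 3.46 and 1.92 FPKM for GCP3. In the difference between the days 7 of the 23 passed, all higher, against 9.38% of loci, with a median of 0.48, and from 5D 16H to 6D 6 rose, against 5.72% of loci. Both counts were lower without 5D 16H replicate 2, which leaves 1 library at 5D 16H, as were the shares of all loci that passed. The list median was then 0.38 for the difference between the days. From 5D 16H to 6D it was then 0.30, beside 0.18 with all libraries. AUR3, the Aurora kinase of the centromere, was among both, but it was listed at 0 in 5D 16H replicate 2. None of the 23 passed from 4D 16H to 5D, against 10.7% of loci, and 6 had an unadjusted p under 0.05, against 28% of loci.

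Of 18 further phragmoplast and cell plate genes tested, 5 passed the F test with or without 5D 16H replicate 2, close to the 29.7% of all loci, and their directions were mixed. From 4D 16H to 5D MAP65-2, a relative of MAP65-3, fell (-0.74, limma adjusted p = 0.00854) and so did MAP65-1, whereas ANP1, the MAP kinase kinase kinase that HINKEL and TETRASPORE activate, rose (0.45, adjusted p = 0.0166). KOR1, a cellulase of the cell plate, differed between the days in the other direction to the members (-0.46, adjusted p = 0.0357), and PAKRP1L, a phragmoplast kinesin, in the same direction (0.79, adjusted p = 0.0201). Altogether 4 of the 18 were higher and 2 lower in that test, against 9.38% and 6.82% of loci, with a median of 0.19 beside 0.10 over all loci. Both counts were lower without 5D 16H replicate 2, as were the shares of all loci that passed, and KOR1 lost its call.

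Of 8 further genes of the division plane, 3 passed the F test (AIR9, AT5G19390 and AT5G12150), also 3 without 5D 16H replicate 2, against 29.7% of all loci. All 3 fell from 5D 8H to 6D, against 10.1% of loci. AIR9, which marks the cortical division site, went from a mean of 36.1 to 22.7 FPKM (-0.65, limma adjusted p = 0.00114). POK1 and POK2, which were counted among the members, had values of 0.06 and 0.16 in that comparison and did not pass. Of 10 kinetochore and checkpoint genes tested, 1 passed the F test, against the same 29.7%, and 0 without 5D 16H replicate 2. The gene was MAD2, a spindle checkpoint protein, which rose from 3.79 FPKM at 5D 16H to 7.89 FPKM at 6D (0.89, limma adjusted p = 0.0206; without that library 0.58, adjusted p = 0.228). The MYB3R activators MYB3R1 and MYB3R4 did not pass, with adjusted p-values of 0.142 and 0.154 in the F test, and their means were 9.46 to 12.5 FPKM and 5.39 to 7.34 FPKM.

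Markers of other cells moved at the same times. The summed endodermal barrier genes (CASP1, MYB36 and ESB1, none at 0) were 737 to 848 FPKM at 4D 16H, 1211 to 1603 FPKM at 5D, 907 and 1229 FPKM at 5D 16H, then 489 to 581.5 FPKM at 6D. From 4D 16H to 5D 1 of these 3 genes rose, against 3.56% of loci. In the difference between the days all 3 passed with lower values, against 6.82% of loci. All 3 stayed below 0 without 5D 16H replicate 2, though not every call held. The summed root cap genes (SMB, BRN1, BRN2 and CEL5, none at 0) were 402 to 445 FPKM at 4D 16H and 264 to 323 FPKM at 5D. Between these times 2 of the 4 genes fell, against 7.14% of loci. Their sums were 306 and 442 FPKM at 5D 16H and 277 to 407 FPKM at 6D, and none of the 4 passed in that step, against 12.3% of loci. The summed meristem markers, of which BBM was listed at 0 in 1 library, were 57.7 to 59.1 FPKM at 4D 16H, 51.9 to 57.8 FPKM at 5D, 52.5 and 55.5 FPKM at 5D 16H and 57.4 to 70.7 FPKM at 6D. These sums hide opposite courses, since of 7 tested WOX5 and AGL42 rose from 4D 16H to 5D while PLT1 and PLT2 fell, and in the difference between the days PLT1, PLT2 and PLT3 passed with higher values and WOX5 with a lower one. That count was 3 higher and 1 lower without 5D 16H replicate 2 too. From 5D 16H to 6D the means of the summed xylem vessel genes were 256 and 178 FPKM and those of the phloem genes 26.0 and 14.8 FPKM, and no gene of either list passed. The part of these cell types in the changes of the 10 genes was not tested.

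The loci most like the 10 genes were found by the Pearson r of their log2 level with the mean standardised profile, over 19 libraries and 12902 loci that averaged 5 FPKM or more. They were AT5G16250, AT2G34020, AT5G56120, DI21, FLA10, TRM10, EB1C, AT3G02120, 3xHMG-box2 and AT1G32190, with r between 0.86 and 0.90, where the 99th percentile of all loci was 0.75. EB1C, a protein of growing microtubule ends that is also on the spindle list, had means of 6.56 FPKM at 4D 16H, 4.87 FPKM at 5D, 4.03 FPKM at 5D 16H, then 7.15 FPKM at 6D. Without 5D 16H replicate 2 the 10 most alike shared 3 loci with these (DI21, AT5G16250 and AT2G34020). The others, by falling r, were DRB5 (r = 0.92), CYC1BAT, a mitotic B-type cyclin (r = 0.90), UBC20 (r = 0.90), FZR3, AT2G43480, AT5G26850 and TOPII, a DNA topoisomerase of dividing cells (r = 0.87).

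Some values could include reads of a neighbour, because the sources name different library kits and do not give whether counting used strand. KNOLLE, TPX2, AUR1 and AUR2 overlap a gene on the opposite strand, by 464, 163, 290 and 877 bases. POK2 overlaps AT3G03795 on the same strand by 70 bases, though their transcripts share no stretch of 100 bases. The neighbours had 1.77 to 3.96 FPKM at KNOLLE, 3.66 to 9.20 FPKM at TPX2, 3.68 to 6.83 FPKM at AUR1 and 0 to 1.95 FPKM at AUR2. At AUR1 the neighbour AT4G32840 fell short of its 4D 16H mean at 5D, as AUR1 did (4.51 against 6.27 FPKM), and at KNOLLE the neighbour AT1G08550 was higher at 5D (3.63 FPKM) than at 4D 16H (2.19 FPKM), opposite to KNOLLE.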

How the data were processed

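The libraries were sequenced as single-end reads and, per the study's methods and the submitters' processing notes, aligned and quantified by the authors with Bowtie, TopHat, Cufflinks and Rsubread against build TAIR10. They deposited 1 table of FPKM values per locus and library. Versions, annotation and filters are not given in the sources used here. The labels name a stranded mRNA kit and the methods another kit, whether counting used strand is not given in the sources used here, and the study excluded some libraries for poor sequence quality.

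Groups and replicate numbers came from the sample titles. FPKM + 1 was log2 transformed, loci with a mean under 1 FPKM were dropped, and 1 mean per time point was fitted with limma 3.58.1 in R 4.3.3, with trended variances and Benjamini-Hochberg adjustment over 18087 loci (threshold 0.05). A pseudocount of 1 understates fold changes of low genes. P-values measure the spread between these libraries. Steps of 8 h, 4D to 6D, 5D 8H to 6D, an F test over time points and the difference between the steps of day 5 and day 4 were tested. In simulated data for 4D to 6D, changes of log2 size 0.5 and of log2 size 1 were each planted in 100 of 18087 loci. The test recovered 11% of the smaller changes and 70% of the larger. Among the loci without a planted change it made 4 false calls in all. The median of the 10 genes in that comparison was 0.33, so not passing there does not show that a gene was unchanged.

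The genes, lists, motif and comparisons were chosen with earlier results of these data known. All 10 genes are described, with, of each wider list, the loci past the F test with the 4 smallest p-values, and the 10 loci most like the genes. AUR3, MAP65-1, the marker genes with a stated direction and the loci most like the genes without 5D 16H replicate 2 were named after their values were seen. Of the 7 meristem markers that could be tested 7 passed the F test, of 4 root cap genes 2, of 3 endodermal barrier genes 3, of 4 root hair genes 2, of 4 xylem vessel genes 2 and of 2 phloem genes 1, against 29.7% of all loci. Alternatives were a pseudocount of 0.1, no filter or a minimum of 5 FPKM, upper quartile scaling, quantile normalization, replicate number as a block, untrended variances, sample weights, fits of only the time points compared, and leaving out each library or 5D 16H. Depth was estimated from FPKM steps. The share of low values within 0.05 of a whole read number was 26.7% to 37.9% (10% by chance), too few for a test on counts. Gene positions and promoter windows came from RefSeq assembly TAIR10.1, in which all 10 genes were found. A promoter window and a marker gene are not reported here. Its protein sequences were not used here.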

Additional observations from a re-analysis of the deposited data

Results flagged for a closer look

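The step from 16 h to the next full day differed between day 5 and day 4 in 6 of the 10 genes, by a test of the difference itself (limma, adjusted over 18087 loci, of which 16.2% passed). On the log2 scale, the step on day 5 exceeded that on day 4 by 0.85 for KNOLLE (adjusted p = 0.0216), 0.88 for TETRASPORE (adjusted p = 0.0107), 0.70 for MAP65-3 (adjusted p = 0.0362), 1.07 for EDE1 (adjusted p = 0.0290), 0.81 for AUR1 (adjusted p = 0.0376) and 0.90 for POK2 (adjusted p = 0.0200). Without 5D 16H replicate 2, the library with an estimated 1.17 M reads, TETRASPORE was at 0.78. Most of the 6 calls were lost in that fit, which leaves 1 library at 5D 16H, but fewer of all loci passed too.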

How the results depend on the processing

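Counts below are of the 10 genes that passed, without the share of all loci in each fit, and show only how far the calls moved. With each library left out in turn, the range was 0 to 4 for the F test over time points (2 with all libraries), 0 to 2 for 4D 16H to 5D (1), 0 to 3 for 5D 8H to 5D 16H (0), 0 to 6 for 5D 16H to 6D (3), 0 to 1 for 4D to 6D (0) and for 5D 8H to 6D (0), 0 to 4 for the F test on the steps of the days (1) and 1 to 9 for the 16 to 24 h step of day 5 against day 4 (6), and 0 for the other 3 steps. The lowest values of the last and of 5D 16H to 6D came without 5D 16H replicate 2 and the highest without 6D replicate 3. The F test over time points was passed by 1 with a pseudocount of 0.1, with no filter and without 5D 16H. From 4D 16H to 5D the count was 2 with a minimum of 5 FPKM, which only 3 of the 10 genes reach, 0 with upper quartile scaling and 4 with sample weights. From 5D to 5D 8H it was 1 with sample weights, and from 5D 8H to 5D 16H 1 with upper quartile scaling and with untrended variances. From 5D 16H to 6D it was 5 with upper quartile scaling, 1 with quantile normalization, and 0 with the minimum of 5 FPKM, with sample weights and with a fit of only those time points. For 4D to 6D and for 5D 8H to 6D it was 1 with quantile normalization and with sample weights. The F test on the steps was passed by 2 with the pseudocount of 0.1 and with upper quartile scaling, by 4 with untrended variances, and by 0 with the minimum of 5 FPKM, quantile normalization and sample weights. The 16 to 24 h difference was passed by 2 with the minimum of 5 FPKM, 3 with quantile normalization and 1 with sample weights. The cause of these changes was not tested.

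With the replicate number as a block the F test over time points was passed by 1 and the 16 to 24 h difference by 5, and no other count changed. The numbers did not pair the libraries, since same-numbered libraries had a mean correlation of deviations of 0.0097 over 52 pairs and 8 of 19 libraries correlated best with their own number. Of 2507 alternatives run on single genes and steps, 39 reversed the sign, and 0 of 268 run on values that passed the test. Among all loci, the share of higher values among the calls moved from 33.2% to 50% (4D 16H to 5D) and from 26.1% to 6.78% (5D 8H to 5D 16H) with upper quartile scaling, and from 57.9% to 70.6% for the 16 to 24 h difference. Depth limits 5D 16H replicate 2 most, with 0 (EDE1) to 27.5 (AUR2) estimated reads per gene.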
